A study of Mus musculus with 12 samples.

Results

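The genes described here are 49 members of the cell division programme, listed by symbol. Their transcripts were measured in the whole lung of 12 mice of the Balb/c strain, each hybridised to its own array (Affymetrix, mouse Gene 1.0 ST). Of the 49, 48 were measured by a probe set that the platform annotation pairs with that gene alone, among 19937 genes measured in this way in all. Ccnb1, which encodes cyclin B1, was paired with no such probe set and is not analysed here. For the measured members, 15 belong to DNA replication, 29 to mitosis and cytokinesis, and 4 (Foxm1, E2f8, Melk and Hells) were kept apart as regulators and chromatin factors.

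The mice formed 4 groups of 3, each group a separate set of animals, and no genetic change is labelled for any of them. Control mice (numbers 1 to 3) were given PBS by the nose. Eosinophilic mice (7 to 9) were injected into the peritoneum on days 0, 7 and 21 with a house dust mite extract holding 0.75 DU of each of the allergens Der f and Der p, together with 1.5 mg of alum, and were challenged through the nose on days 26 to 28. DU are the development units in which the extract was dosed. Mixed mice (15 to 17) were never injected and received 0.75 DU of each allergen through the nose once a week, 4 times. Neutrophilic mice (23 to 25) followed the same nasal schedule at 7.5 DU of each allergen. The eosinophilic group therefore differed from the other allergen groups in route, adjuvant and timing together, and these cannot be told apart. Age and sex were not given in the sources used here.

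Dividing cells copy their DNA in S phase and separate the copies in mitosis, and the genes for these steps are switched on in that order. E2F factors drive the replication genes, among them the MCM helicase that opens the DNA and the enzymes that supply nucleotides. Later in the cycle the MuvB complex, with B-MYB and FOXM1, drives the mitotic genes through promoter elements known as the cell cycle homology region (CHR) and the CCAAT box. In a resting lung few cells divide, and after allergen exposure both recruited and resident cells can enter the cycle. In whole tissue, more dividing cells and more transcript in each of them cannot be told apart.

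These promoter elements were read from RefSeq promoter sequences of mouse build GRCm38.p6, which held an entry for 41 of the 48 measured members. The 250 bases before each transcription start were searched on both strands. The CHR core (TTTGAA or its complement TTCAAA) was found at 11 of 25 mitotic members (44.0%), at 2 of 13 replication members (15.4%) and at 18.3% of the 27025 genes with an entry. The CCAAT box (CCAAT or ATTGG) was found at 80.0% of the mitotic members, at 76.9% of the replication members and at 37.5% of all genes. An E2F form (TTTGGCGC, TTTCCCGC, TTTGCCGC or TTTCGCGC, or a reverse complement) was found at 2 mitotic members (8.0%), at 4 replication members (30.8%) and at 2.16% of all genes. CHR core and CCAAT box occurred together at 36.0% of the mitotic members, 15.4% of the replication members and 6.45% of all genes. A match describes these letters alone and is not a measured site.

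The 150 bases before the start of 4 members are shown, 2 of them mitotic (Cdk1 and Ube2c) and 2 of replication (Mcm6 and Rrm2). Their expression is described in detail below, as is that of other members, and they do not stand for their classes. Capitals mark the CHR core, the CCAAT box and the E2F forms, and adjoining capitals in Mcm6 come from forms that overlap on opposite strands. Cdk1 lies on the minus strand (chr10:69352913-69353062), Ube2c on the plus strand (chr2:164769779-164769928), Mcm6 on the minus strand (chr1:128359706-128359855) and Rrm2 on the plus strand (chr12:24708104-24708253). Each is written 5′ to 3′ in the direction of its gene.
Cdk1: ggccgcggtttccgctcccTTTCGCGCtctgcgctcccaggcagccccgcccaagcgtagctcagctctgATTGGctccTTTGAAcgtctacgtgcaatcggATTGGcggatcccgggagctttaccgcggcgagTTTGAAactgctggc
Ube2c: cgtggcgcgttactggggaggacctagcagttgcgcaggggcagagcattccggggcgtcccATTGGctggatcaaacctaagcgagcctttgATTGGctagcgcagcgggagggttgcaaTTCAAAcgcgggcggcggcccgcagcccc
Mcm6: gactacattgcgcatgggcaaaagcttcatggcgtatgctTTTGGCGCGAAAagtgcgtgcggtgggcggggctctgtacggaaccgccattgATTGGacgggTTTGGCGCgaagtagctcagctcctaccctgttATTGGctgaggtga
Rrm2: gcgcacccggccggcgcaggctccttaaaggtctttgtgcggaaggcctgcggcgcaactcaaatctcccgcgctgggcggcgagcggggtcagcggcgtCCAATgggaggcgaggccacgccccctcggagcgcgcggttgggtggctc
The Cdk1 sequence held the CHR core at 71 and 15 bases before the start, counted to the first base of the match, with CCAAT boxes at 80 and 48 bases and 1 E2F form farther out. Ube2c held 1 CHR core at 29 bases and CCAAT boxes at 88 and 57 bases. Mcm6 held 3 matches of E2F forms and 2 CCAAT boxes and no CHR core. Rrm2 held 1 CCAAT box at 50 bases, and no CHR core or E2F form was found in this window. Other mitotic members described below differed from the 2 shown. In the 250 bases searched, Anln held no match of any of these forms. Kif2c held 1 CHR core and no CCAAT box, and Mki67 held 2 CHR cores and 3 CCAAT boxes.

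The level of each gene is the deposited log2 intensity, and a difference of 1 on this scale is a 2-fold difference. The members were dim in controls, with a median level of 4.71 against 5.51 over all genes, and 29 of the 48 had a control mean under 5. The lowest control mean was 3.35 (Cenpk) and the highest 8.86 (Pcna). These levels say how near to background the signal lay and do not rank transcripts, since intensity also depends on the probe. The arrays carried the markers of lung, and the control means of Sftpc, Scgb1a1, Ager, Pecam1 and Hopx lay between percentiles 94.4 and 100 of all genes.

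**Figure D1:**
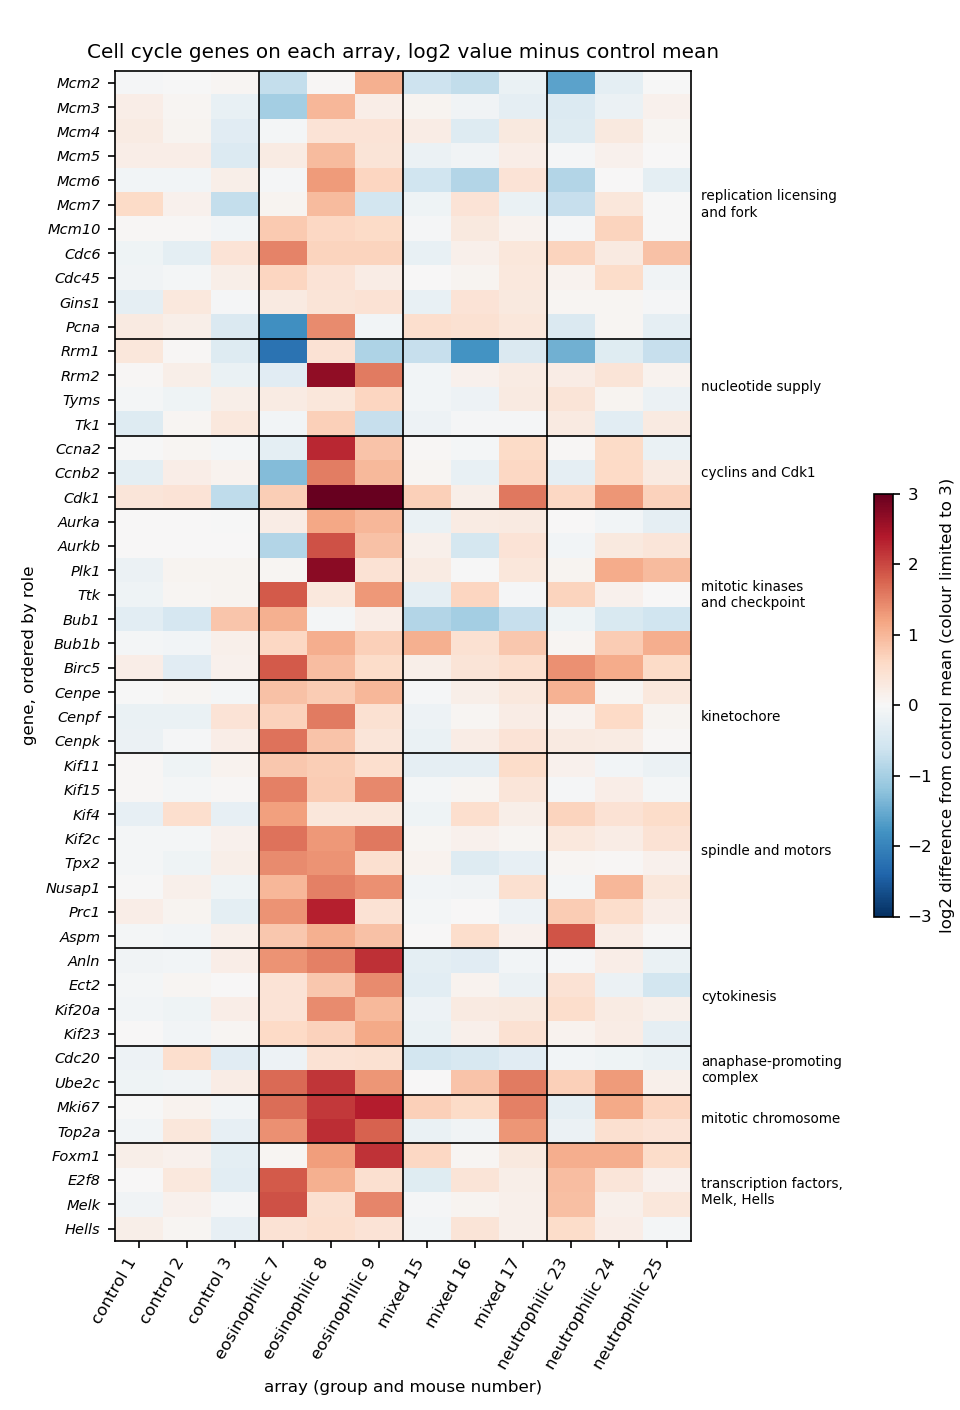
Log2 intensity of each measured member minus its mean in the 3 control mice, for the 12 arrays (columns, by group and mouse number) and the 48 members (rows, by role). The eosinophilic columns hold most of the high values, mitotic rows stand above replication rows there, and mixed and neutrophilic columns lie near the controls.

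Values on 3 arrays were compressed. The SD over all probe sets was 0.996 for eosinophilic mouse 7, 1.52 for eosinophilic mouse 9 and 1.51 for neutrophilic mouse 23, and 1.77 to 2.04 on the other 9 arrays. The correlation with the median of the other arrays was 0.356 for mouse 7, 0.864 for mouse 9 and 0.868 for mouse 23, against 0.956 to 0.980 elsewhere. Dim genes read high on these arrays and bright genes low. The median gene with a control mean under 4, where 10 members lie, was 1.50 above its control mean on mouse 7, 0.72 on mouse 9 and 0.78 on mouse 23. At a control mean of 4 to 5, with 19 members, these values were 0.83, 0.39 and 0.43, and at 6 to 8, with 6 members, they were -1.14, -0.65 and -0.66. On eosinophilic mouse 8 the median gene stood at 0.07, 0.01 and -0.10 in these same 3 ranges. The classes differ in this respect, since 21 of 29 mitotic members but 4 of 15 replication members had a control mean under 5. Even Sftpc, a surfactant gene at 14.0 to 14.1 in controls, read 7.38 on mouse 7 and 14.3 on mouse 8. All 12 arrays stayed in the fit, and results are also given without mouse 7 and without all 3 of these arrays. The part of this compression in any result below was not tested, except where a value without those arrays is given.

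In eosinophilic lungs 3 of the 48 members were higher than in controls by limma (adjusted p under 0.05) and 0 were lower, against 0.0752% of all genes called higher and 0.497% called in either direction. All 3 are mitotic: Kif2c, a kinesin that takes microtubules apart at kinetochores, Anln, the anillin scaffold of the contractile ring, and Mki67, which coats mitotic chromosomes and encodes the Ki-67 antigen. The median difference was 0.94 over the 29 mitotic members, 0.36 over the 15 replication members and 0.01 over all genes. The mitotic members are the dimmer class, and dim genes read high on mice 7 and 9. The part of this in the gap between the classes was not tested. On mouse 8 alone, where the median dim gene stood within 0.07 of its control mean, the class medians were 1.29 and 0.67. A positive difference was seen in 45 of 48 members, against 50.2% of all genes. At least 2-fold higher were 17 of 48, against 7.25% of all genes. All genes are not a like background for these 2 counts, since 29 of the 48 members had a control mean under 5. Without mouse 7 the count was 8 higher, against 0.451% of all genes called higher and 1.33% in either direction, and it held the same 3 genes together with Cdk1, Top2a, Nusap1, Rrm2 and Foxm1.

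**Figure D2:**
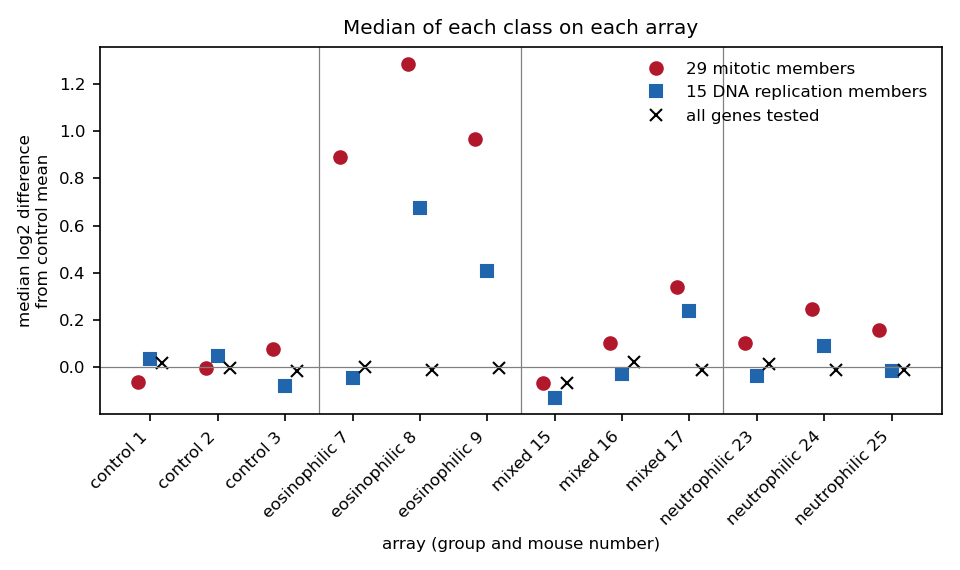
Median over the members of log2 intensity minus the control mean, for each array, shown for DNA replication members, mitotic members and all genes. The mitotic median was 0.89, 1.29 and 0.97 in the eosinophilic mice and at most 0.34 in any other mouse, and the replication median was highest in mouse 8, at 0.67. The crosses for all genes pool dim genes that read high on mice 7, 9 and 23 with bright genes that read low.

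Array by array, the median mitotic member stood 0.89 above its control mean in mouse 7, 1.29 in mouse 8 and 0.97 in mouse 9. For replication members these medians were -0.045, 0.67 and 0.41. Mouse 8, the eosinophilic array without compression, had the highest median in both classes, and 44 of its 48 member values lay above the highest control. The corresponding numbers were 32 in mouse 7 and 41 in mouse 9. A fit without mice 7 and 9 and neutrophilic mouse 23 left mouse 8 as the single eosinophilic mouse (n = 1 and 3), with a spread assumed equal to that of the other groups, and called 18 members higher, 16 of them mitotic, against 1.47% of all genes called higher and 2.17% in either direction.

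Among the replication members, those of licensing and the fork had a median difference of 0.36 (range -0.17 to 0.95), with 0 of 11 past the threshold. Mcm6, a subunit of the MCM helicase, read 5.94, 5.95 and 6.21 in controls and 5.99, 7.30 and 6.68 in eosinophilic mice 7, 8 and 9. Only mouse 7 overlapped the controls, and the difference was 0.62 (SE 0.41, adjusted p = 0.288 by limma). Mcm5, another subunit, read 6.36, 6.38 and 5.75 in controls and 6.4, 7.10 and 6.55 in eosinophilic mice, with no overlap (difference 0.52, SE 0.28, adjusted p = 0.224). Cdc6, which loads the helicase onto origins, read 3.93, 3.76 and 4.48 in controls against 5.55, 4.73 and 4.73, again without overlap. Its difference was 0.95 (SE 0.32, adjusted p = 0.123), the widest of the licensing members, and it was highest on the compressed array of mouse 7.

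Pcna, the sliding clamp of the replication fork, spread most. Its values were 9.11, 9.03 and 8.43 in controls and 7.03, 10.3 and 8.76 in eosinophilic mice, so that mouse 8 lay above all controls and mouse 7 below them. With all arrays the difference was -0.17 (SE 0.59, adjusted p = 0.840). It turned to 1.41 (adjusted p = 0.0276) when mice 7, 9 and 23 were left out. A second probe set of Pcna gave -1.04 with all arrays.

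The enzymes of nucleotide supply were divided. Rrm2, the regulatory subunit of ribonucleotide reductase made in S phase, read 5.29, 5.42 and 5.05 in controls and 4.90, 7.91 and 6.82 in eosinophilic mice. Mice 8 and 9 stood well above every control and mouse 7 below them all. The difference was 1.29 (SE 0.55, adjusted p = 0.162) with all arrays and 2.11 (SE 0.32, adjusted p = 0.00801) without mouse 7, which made Rrm2 the one replication member past the threshold in that fit. Its partner Rrm1, the catalytic subunit, read 7.71, 7.40 and 6.97 in controls and 5.14, 7.80 and 6.43 in eosinophilic mice, which overlap (difference -0.90, SE 0.58, adjusted p = 0.281, and -0.24 without mouse 7). Tyms, the thymidylate synthase, read 6.09, 6.02 and 6.33 against 6.4, 6.49 and 6.8, a narrow gap without overlap (0.41, SE 0.26, adjusted p = 0.273). Tk1, the cytosolic thymidine kinase, overlapped throughout, at 5.37, 5.83 and 6.07 against 5.67, 6.48 and 5.08 (-0.01, SE 0.36, adjusted p = 0.978), while its dimmer probe set differed by 0.66.

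All 29 mitotic members had a positive difference in eosinophilic lungs, from 0.25 to 2.5. In 22 of them all 3 eosinophilic values lay above all 3 controls, which held for 11.1% of all genes. Most mitotic members (21 of 29) had a control mean under 5, where the median gene read high on mice 7 and 9. All genes are therefore not a like background for this count. Cdk1, the kinase that drives entry into mitosis, had the largest difference of any member. It read 5.19, 5.23 and 4.06 in controls and 5.56, 8.44 and 8.0 in mice 7, 8 and 9, so that mice 8 and 9 lay far above the controls and mouse 7 just above them. The difference was 2.5 (SE 0.65, 5.67-fold, adjusted p = 0.0814) with all arrays and 3.39 (SE 0.44, 10.5-fold, adjusted p = 0.00253) without mouse 7. Its cyclin partners did not pass in either fit: Ccna2 differed by 0.94 (adjusted p = 0.215, and 1.56 at 0.0691 without mouse 7) and Ccnb2 by 0.40 (adjusted p = 0.613, and 1.25 at 0.0981).

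**Figure D3:**
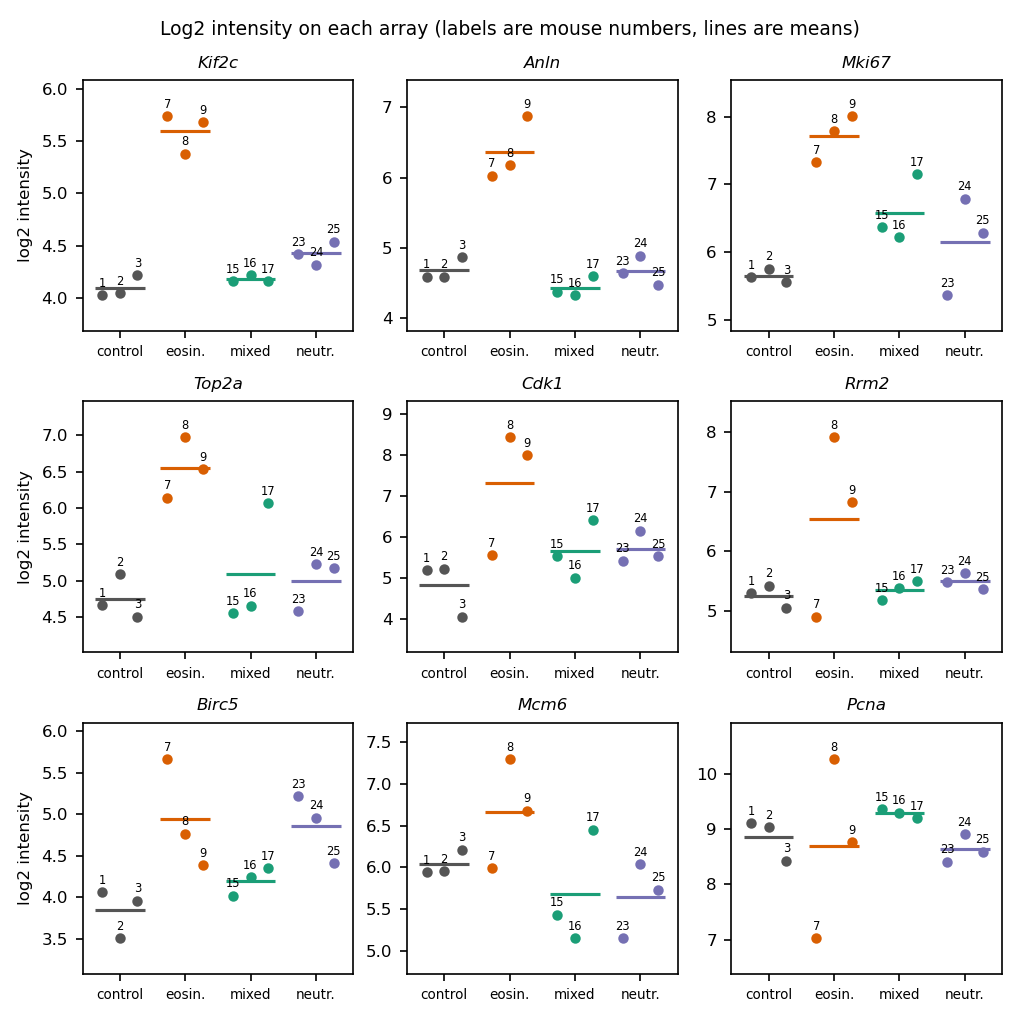
Log2 intensity of 9 members in each mouse (points, labelled by mouse number), by group, with the mean of each group as a line. Kif2c, Anln and Mki67 separate the eosinophilic mice from the other groups, whereas Rrm2, Mcm6 and Pcna are high in mouse 8 and lower in mouse 7.

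Spindle and motor genes held the most members with a 2-fold difference, 5 of 8, and their median difference was 1.16. Kif2c read 4.03, 4.05 and 4.22 in controls and 5.74, 5.38 and 5.68 in eosinophilic mice. The 3 eosinophilic values lay close together and well above the controls, a rise of 1.50 (SE 0.23, 2.83-fold, adjusted p = 0.0353) that measured 1.43 (adjusted p = 0.0149) without mouse 7. Kif15, a motor that helps keep spindle poles apart, read 3.96, 3.86 and 3.97 against 5.44, 4.69 and 5.37. This gap missed the threshold (1.23, SE 0.27, adjusted p = 0.0601). Nusap1, which bundles spindle microtubules, read 4.03, 4.20 and 3.92 against 5.05, 5.56 and 5.44, with no overlap (1.30, SE 0.31, adjusted p = 0.0701, and 0.0446 without mouse 7). Tpx2, the activator of Aurora A on the spindle, differed by 1.08 (adjusted p = 0.0902) and Prc1, the bundler of the central spindle, by 1.36 (adjusted p = 0.103).

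Of the 4 cytokinesis genes, Anln rose. It read 4.59, 4.59 and 4.87 in controls and 6.03, 6.18 and 6.88 in eosinophilic mice, every one of which exceeded the highest control by more than 1. The difference was 1.68 (SE 0.28, 3.21-fold, adjusted p = 0.0462) and without mouse 7 it was 1.85 (adjusted p = 0.00899). The other 3 differed by 0.81 to 0.93 and did not pass: Ect2, the exchange factor that places the contractile ring, and the midzone kinesins Kif20a and Kif23.

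Both genes of the mitotic chromosome were among the highest. Mki67 read 5.63, 5.76 and 5.56 in controls and 7.33, 7.78 and 8.01 in eosinophilic mice, with no value in between. Its difference was 2.06 (SE 0.38, 4.16-fold, 95% interval 1.24 to 2.88, adjusted p = 0.0462). Top2a, the topoisomerase that untangles sister chromatids, read 4.67, 5.09 and 4.51 against 6.14, 6.97 and 6.53. The groups did not overlap, and the difference of 1.79 (SE 0.41) missed the threshold with all arrays (adjusted p = 0.0648) and passed without mouse 7 (1.99, adjusted p = 0.0349). A second, dimmer probe set of Top2a differed by 1.07.

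Of the 7 mitotic kinase and checkpoint genes 0 passed, with a median difference of 0.81. Plk1, a kinase of spindle assembly and mitotic exit, read 4.41, 4.67 and 4.66 in controls and 4.63, 7.28 and 5.01 in eosinophilic mice. Only mouse 8 stood far above the controls (difference 1.06, SE 0.55, adjusted p = 0.209). Aurkb, the kinase of the chromosomal passenger complex, read 5.21 in every control and 4.33, 7.12 and 6.10 in eosinophilic mice, with mouse 7 below and mice 8 and 9 above (0.64, SE 0.54, adjusted p = 0.391, and 1.40 at 0.0701 without mouse 7). Birc5, survivin, a member of the same complex, read 4.06, 3.51 and 3.96 against 5.67, 4.77 and 4.39. These did not overlap, and mouse 7 was the highest (1.10, SE 0.35, adjusted p = 0.113). The checkpoint kinase Bub1 overlapped between the groups, at 4.49, 4.31 and 5.64 against 5.87, 4.77 and 5.03 (0.41, adjusted p = 0.439), and its relative Bub1b did not, at 4.28, 4.25 and 4.50 against 4.96, 5.43 and 5.05 (0.81, adjusted p = 0.137).

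The 2 genes tied to the anaphase-promoting complex, which marks mitotic proteins for destruction, differed from each other. Ube2c, its ubiquitin-conjugating enzyme, read 5.11, 5.13 and 5.46 in controls and 6.93, 7.39 and 6.55 in eosinophilic mice. All 3 lay more than 1 above the highest control, with a difference of 1.72 (SE 0.41, adjusted p = 0.0696, and 0.0735 without mouse 7). Cdc20, an activator of the complex, read 5.09, 5.75 and 4.92 against 5.11, 5.70 and 5.72, which overlap (0.25, SE 0.29, adjusted p = 0.520). The 3 kinetochore members Cenpe, Cenpf and Cenpk differed by 0.89 to 0.95 without overlap, and 0 passed (adjusted p of 0.113 to 0.132).

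Foxm1, the transcription factor of the mitotic programme, read 4.69, 4.62 and 4.21 in controls and 4.58, 5.76 and 6.67 in eosinophilic mice. Mouse 7 lay among the controls and mice 8 and 9 above them. The difference was 1.16 (SE 0.44, adjusted p = 0.135) with all arrays and 1.71 (SE 0.33, adjusted p = 0.0259) without mouse 7. The kinase gene Melk differed by 1.29 (adjusted p = 0.0903), the atypical E2F gene E2f8 by 1.12 (adjusted p = 0.120) and the chromatin remodeller gene Hells by 0.45 (adjusted p = 0.240). Melk and E2f8 were highest on the array of mouse 7 (5.90 and 6.30), and without it they differed by 0.98 and 0.76.

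**Figure D4:**
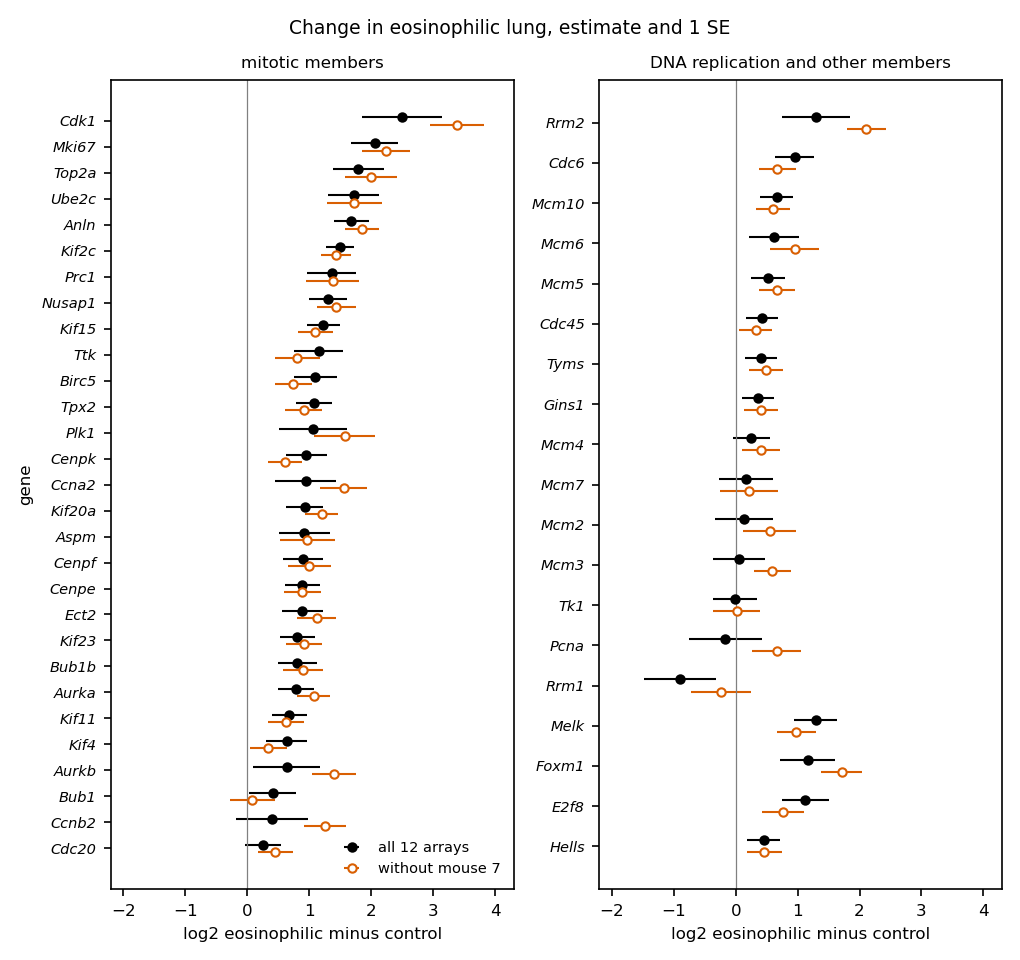
Log2 difference between eosinophilic and control mice for the 48 members, by limma with all 12 arrays and without eosinophilic mouse 7. Bars show the SE of each difference. With all 12 arrays the points of the mitotic members lie above 0 and those of replication members on both sides of it. The points of Cdk1, Rrm2 and Foxm1 move up without mouse 7.

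The calls depended on which arrays set the spread. The number of members called higher in eosinophilic mice was 0 when any 1 of the 3 control mice, eosinophilic mouse 9, any 1 of the mixed mice, or neutrophilic mouse 24 or 25 was left out. It was 2 without neutrophilic mouse 23, 8 without eosinophilic mouse 7, and 19 members (18 higher, 1 lower) without eosinophilic mouse 8, a fit in which both remaining eosinophilic arrays were compressed and 8264 genes in all were called. Centring each array on its median also left 0. Over the 20 alternative settings the differences of Kif2c, Anln and Mki67 were 1.26 to 1.61, 1.42 to 1.85 and 1.81 to 2.75. The median over the members ranged from 0.59 to 0.98. Many of these settings could not move the differences of these 3 genes. They left out a mixed or neutrophilic array, or changed only the spread, the genes kept or the averaging of probe sets. In those settings the sign was fixed in advance.

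Markers of other cells were followed beside these members, from lists by cell type. In eosinophilic lungs 0 of 6 thymocyte, 0 of 6 T cell, 0 of 5 B cell, 0 of 3 germinal centre B cell, 0 of 6 plasma cell, 0 of 5 NK cell, 0 of 7 neutrophil, 0 of 5 neutrophil precursor and 0 of 5 eosinophil markers passed. The summed log2 level of the T cell markers was 34.0 to 38.4 in controls and 32.9, 38.6 and 34.3 in mice 7, 8 and 9, and that of the thymocyte markers 25.7 to 26.6 and 33.3, 25.8 and 27.8. The sum of the neutrophil precursor markers, from cells that can divide, was 19.8 to 22.4 in controls and 26.3, 21.5 and 25.8 in eosinophilic mice. It lay above every control on the compressed arrays of mice 7 and 9 and within the controls on mouse 8.

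The eosinophil sum was 24 to 24.4 in controls and 25.7, 27.1 and 26.7 in eosinophilic mice, above every control in all 3. It was above every control in the other allergen groups too, at 25.3, 26.3 and 25.9 in mixed and 27.1, 26.3 and 24.8 in neutrophilic mice. The monocyte and macrophage sum was 34.9 to 37.9 in controls and 29, 42.7 and 39.1 in eosinophilic mice. The alveolar macrophage sum was 42.2 to 45.2 and 38.7, 50.1 and 48.4. Both were above every control in mice 8 and 9 and below in mouse 7. The alveolar macrophage sum was above every control in the other allergen groups too, at 49.4, 50.5 and 52.4 in mixed and 47.5, 48.7 and 47.8 in neutrophilic mice. There the monocyte and macrophage sum was 40.4, 36.3 and 40.6, and 35.4, 41.8 and 41.2. In eosinophilic lungs 1 of 6 alveolar macrophage markers passed: Chil3, a chitinase-like protein of activated macrophages (3.20, SE 0.63, adjusted p = 0.0479). Without mouse 7 Mrc1, the mannose receptor gene, did too (2.40, adjusted p = 0.0217).

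Markers of several resident lung cell types lay lower, and bright genes read low on mice 7 and 9. The blood endothelium sum was 63.1 to 64.9 in controls and 38.7, 58.4 and 58.2 in mice 7, 8 and 9, and the club cell sum 44.8 to 45.6 and 21.8, 41.1 and 40.5, below every control in all 3 mice. The alveolar type 1 sum was 57.7 to 59.8 and 35.3, 56.0 and 50.3, and the ciliated cell sum 35.1 to 36.2 and 30.3, 33.0 and 33.0. The basal cell sum lay above every control, at 21.6, 20.4 and 21.9 against 19.1 to 20.1. It read 20.3, 20.6 and 19.7 in mixed mice and 22.2, 20.1 and 19.7 in neutrophilic mice 23, 24 and 25. The highest sums were thus on the 3 compressed arrays, on which dim genes read high. The smooth muscle sum was 40.4 to 42.8 in controls and 30.7, 43.8 and 40.5 in eosinophilic mice 7, 8 and 9. Called lower were 1 of 6 alveolar type 1 markers (Akap5), 1 of 4 club cell markers (Scgb3a2) and 1 of 6 ciliated cell markers (Sntn). For endothelium it was 0 of 6, and for all genes 0.421%. The part of any of these cells in the members' difference was not tested.

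In mixed lungs, which had received the low dose by the nose alone, 0 of the 48 members passed the threshold by limma, against 0.471% of all genes called. At an unadjusted p under 0.05 there were 3, against 7.95% of all genes. The median difference from controls was 0.10 over all members, 0.13 over mitotic and 0.03 over replication members, against 0.00 over all genes, and 0 members reached 2-fold higher. All 3 mixed values lay above all 3 controls in 3 members and below them in 4, against 9.16% and 13.9% of all genes. Leaving out mouse 7 also gave 0 past the threshold, against 2.99% of all genes. Leaving out mice 7, 9 and 23 gave 2, both higher, Mki67 (adjusted p = 0.0294) and Bub1b (0.0333). Of all genes 3.59% were then called higher and 9.32% in either direction.

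Mki67 read 6.37, 6.22 and 7.15 in mixed mice 15, 16 and 17, above every control, with a difference of 0.93 (SE 0.38, 95% interval 0.11 to 1.75, adjusted p = 0.497). Bub1b, at 5.40, 4.79 and 5.16, also lay above every control (0.77, SE 0.31, adjusted p = 0.467). The third, Pcna, read 9.36, 9.30 and 9.20 against at most 9.11 in controls, and is a replication member (0.43, SE 0.59, adjusted p = 1). Below every control were Bub1, at 3.93, 3.78 and 4.13 (-0.87, SE 0.38, adjusted p = 0.582), Rrm1, at 6.67, 5.56 and 6.92 (-0.98, SE 0.58, adjusted p = 0.900), and Cdc20, at 4.69, 4.76 and 4.91 (-0.46, adjusted p = 0.937). Mcm2, of the MCM helicase, was lower too, at 6.20, 6.08 and 6.61 against 6.77, 6.8 and 6.87 (-0.52, adjusted p = 1).

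Mixed mouse 17 was the highest of its group for several mitotic members. Cdk1 read 6.42 in it against 5.54 and 5.01 in mice 15 and 16, Top2a 6.07 against 4.56 and 4.66, and Ube2c 6.81 against 5.26 and 6.09. In this mouse 27 of 48 members lay above the highest control, against 7 in mouse 15 and 20 in mouse 16. The median over its mitotic members was 0.34, lower than in each eosinophilic mouse. The group differences were 0.83 (adjusted p = 1) for Cdk1, 0.34 (adjusted p = 1) for Top2a and 0.82 (adjusted p = 0.719) for Ube2c, and the mixed values overlapped the controls for all 3.

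In neutrophilic lungs, which had received the higher dose, 0 of 48 members passed, against 2.11% of all genes called, and 1 had an unadjusted p under 0.05, against 14.7% of all genes. The median difference was 0.26 over mitotic members, 0.02 over replication members and 0.05 over all genes. All 3 neutrophilic values lay above all 3 controls in 7 members and below them in 0, against 12.6% and 20.4% of all genes. Birc5 came first, at 5.22, 4.96 and 4.41 in mice 23, 24 and 25, above every control (1.02, SE 0.35, 2.03-fold, adjusted p = 0.171). It was the 1 member to pass without mouse 7 (adjusted p = 0.0320), against 2.24% of all genes called higher and 9.47% in either direction. Foxm1, at 5.59, 5.60 and 5.06, was next and also above every control (0.91, SE 0.44, adjusted p = 0.370, and 0.0711 without mouse 7).

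The remaining members named by the rule did not pass with all arrays. Plk1 read 4.67, 5.69 and 5.54, with mice 24 and 25 above every control (0.72, SE 0.55, adjusted p = 0.613). Mki67 read 5.37, 6.79 and 6.29, with mouse 23 below all controls and mice 24 and 25 above them (0.50, SE 0.38, adjusted p = 0.604). Top2a, at 4.58, 5.23 and 5.17, overlapped the controls (0.24, adjusted p = 0.819), and Cdk1, at 5.43, 6.16 and 5.53, did not (0.88, SE 0.65, adjusted p = 0.593). Aspm, a spindle pole gene, read 6.01 in mouse 23 and 4.35 and 4.16 in the other 2, with a difference of 0.72 (adjusted p = 0.474) that was 0.14 without the 3 compressed arrays. Cdc6, at 4.73, 4.33 and 4.95, overlapped the controls (0.61, adjusted p = 0.438), as did Ube2c, at 5.96, 6.51 and 5.40 (0.72, adjusted p = 0.474), and Kif4, a chromosome kinesin, at 4.50, 4.27 and 4.38 (0.56, adjusted p = 0.493). Cenpe, the kinetochore motor, read 4.47, 3.49 and 3.75 against 3.41, 3.49 and 3.37 in controls (0.48, adjusted p = 0.494), and mouse 24 met the highest control to 2 decimals.

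No replication member passed in these lungs. Mcm6 read 5.15, 6.04 and 5.73, Pcna 8.41, 8.91 and 8.59, Rrm2 5.48, 5.63 and 5.36 and Tyms 6.54, 6.24 and 5.98. Rrm2 lay above the highest control in 2 of 3 mice (0.24, SE 0.55, 95% interval -0.96 to 1.43, adjusted p = 0.868). Without mice 7, 9 and 23, 5 members passed, all higher (Plk1, Bub1b, Birc5, Mki67 and Foxm1). Of all genes 5.76% were then called higher and 16% in either direction.

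Of the neutrophil markers 4 of 7 were higher in these lungs, S100a8, S100a9, Ly6g and Mmp8, against 0.662% of all genes called higher. The summed log2 level of all 7 was 54.9 to 65.0 against 40.6 to 48.0 in controls. Of the neutrophil precursor markers, which belong to cells that can divide, 0 of 5 passed, and their sum was 21.3 to 22.9 against 19.8 to 22.4. Of the plasma cell markers 1 of 6 was higher, Jchain, the joining chain of secreted antibodies, and of the alveolar macrophage markers 1 of 6, Chil3. Of the eosinophil markers 0 of 5 passed. Called lower were 2 of 6 alveolar type 1 markers (Akap5 and Rtkn2) and 1 of 6 ciliated cell markers (Sntn), against 1.45% of all genes. The blood endothelium sum was 54.2 to 58.2 against 63.1 to 64.9 in controls, with 0 of 6 markers called. Their part in the values of the division genes was not tested.

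Set against each other directly, the allergen groups differed in few members. Anln was lower in neutrophilic than in eosinophilic lungs, at 4.64, 4.89 and 4.48 against 6.03, 6.18 and 6.88, without overlap (-1.69, SE 0.28, 0.310-fold, adjusted p = 0.0466). It was the 1 member called, against 0.115% of all genes, and no other gene was called lower in this comparison. Without mouse 7, Cdk1 (-2.51, adjusted p = 0.0369) and Rrm2 (-1.88, adjusted p = 0.0294) were called lower as well, against 0.0502% of all genes (0.191% in either direction). The median over the members was -0.63, and -0.80 over the mitotic ones. Without mice 7, 9 and 23, which left 1 eosinophilic mouse, the median over the members was -0.85.

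Between mixed and eosinophilic lungs 0 members passed, against 0.00502% of all genes (1 gene), although 26 of 48 members had an unadjusted p under 0.05, against 16.7% of all genes. Anln, at 4.38, 4.33 and 4.60 in mixed mice, differed by -1.93 (SE 0.28, adjusted p = 0.0711). It was called lower without mouse 7 (-2.10, adjusted p = 0.0185), together with Rrm2 (-2.02, adjusted p = 0.0440), against 0.0201% of all genes (0.0502% in either direction). Kif2c, at 4.16, 4.22 and 4.16, differed by -1.42 (adjusted p = 0.121) and Mki67 by -1.13 (adjusted p = 0.295), and neither passed in these fits. The median over the members was -0.75.

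Neutrophilic and mixed lungs, which differed in dose alone, were not told apart by any member. The median difference was 0.09, 0 members and 0% of all genes were called, and 0 members had an unadjusted p under 0.05, against 3.10% of all genes. For Mki67 the difference was -0.43 (95% interval -1.25 to 0.39) and for Top2a -0.10 (95% interval -0.98 to 0.78), so that the interval for Mki67 still holds a level 2-fold lower. A moderated F test for any difference among the 4 groups called 2 members, Anln (adjusted p = 0.0200) and Kif2c (adjusted p = 0.0247), against 0.883% of all genes, and 8 without mouse 7, against 4.60%.

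Genes of the same pathway outside the list were followed in the same way. Of 41 further mitotic genes 0 passed in eosinophilic lungs, with a median difference of 0.80. Of 29 further replication genes 0 passed, with a median of 0.30, against 0.497% of all genes called. Kif18b, a kinesin of the spindle, read 3.92, 3.99 and 4.73 in controls and 5.75, 5.85 and 5.58 in eosinophilic mice without overlap (1.52, SE 0.31, adjusted p = 0.0547) and passed without mouse 7 (adjusted p = 0.0446). Hmmr, a spindle assembly factor, differed by 1.40 (adjusted p = 0.0660), and Racgap1, a partner of Kif23 in cytokinesis, by 1.21 (adjusted p = 0.0797). Hmmr read 3.30, 3.47 and 3.58 in controls and 5.30, 4.18 and 5.06 in mice 7, 8 and 9. Racgap1 read 4.84, 5.01 and 4.75 against 6.70, 5.96 and 5.57. Both were highest on the compressed array of mouse 7.

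None of the upstream regulators listed passed in eosinophilic lungs by limma, in either direction. Of 10 G1 cyclins and kinases 0 passed, with a median of -0.60 and, without mouse 7, -0.35. Of 13 cell cycle inhibitors 0 passed, with medians of -1.13 and -0.80. Of 13 E2F and DREAM complex factors 0 passed, and the median turned from -0.04 with all arrays to 0.30 without mouse 7. E2f1, an activator of replication genes, read 6.42, 6.05 and 6.0 against 5.74, 5.53 and 5.45 in controls, and E2f3, another activator, 5.23, 5.44 and 5.64 against 4.87, 4.83 and 4.52. Both lay above every control, with differences of 0.58 (SE 0.28, adjusted p = 0.183) and 0.70 (SE 0.27, adjusted p = 0.138). Mybl2, which encodes B-MYB, differed by -0.06 (adjusted p = 0.876) and Ccne1, cyclin E1, by 0.37 (adjusted p = 0.371). Rb1, Cdkn1b and Ccnd1 have control means above 8. The median gene of that level stood -2.97, -0.17 and -0.99 from its control mean on mice 7, 8 and 9. On mice 23, 24 and 25 it stood at -1.08, -0.41 and -0.32. The part of this in the values below was not tested.

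**Figure D5:**
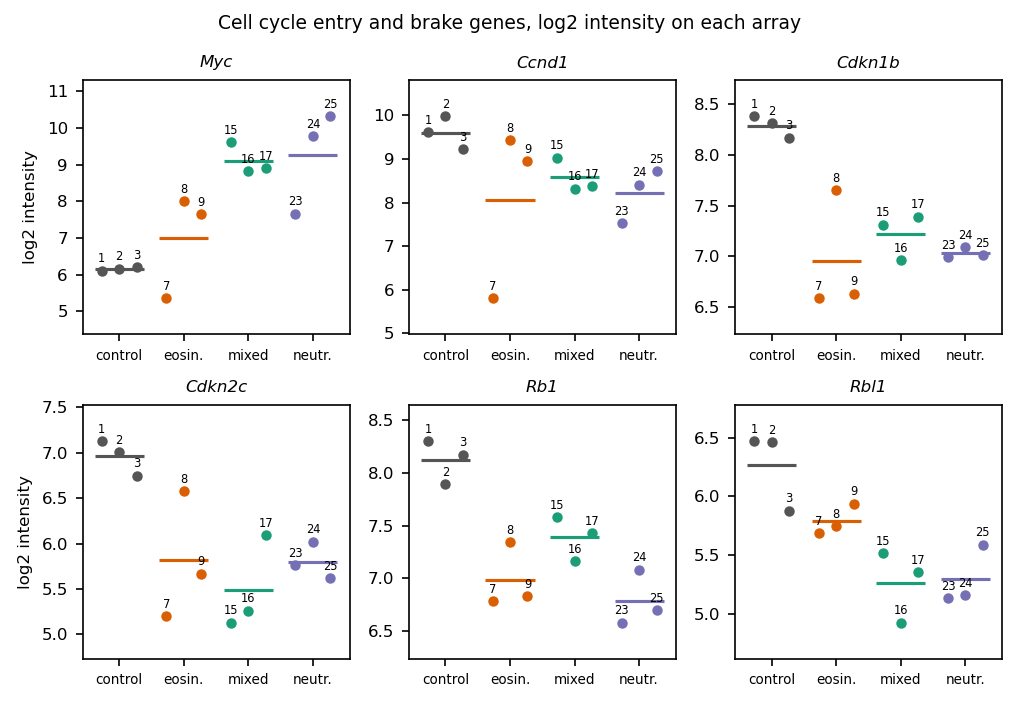
Log2 intensity of 6 upstream regulators in each mouse (points, labelled by mouse number), by group, with the mean of each group as a line. Myc is high in mixed and neutrophilic mice, and Cdkn1b, Cdkn2c and Rb1 are lower in the allergen groups than in controls.

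Myc, a growth-promoting transcription factor, was lowest in controls, at 6.11, 6.17 and 6.20. It read 5.37, 8.01 and 7.65 in eosinophilic, 9.62, 8.82 and 8.90 in mixed and 7.67, 9.77 and 10.3 in neutrophilic mice, so that the nasal-only groups lay wholly above the controls and mouse 7 below them. It rose in neutrophilic lungs (3.09, SE 0.71, adjusted p = 0.0451, and 0.00243 without mouse 7), the group in which 0 members passed. In mixed lungs the difference was 2.95 (adjusted p = 0.107, and 0.00671 without mouse 7) and in eosinophilic lungs 0.85 (adjusted p = 0.386). The direct difference of neutrophilic from eosinophilic lungs was 2.24 (SE 0.71, adjusted p = 0.399).

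Rb1, the retinoblastoma gene that restrains E2F factors, fell by 1.33 in neutrophilic lungs (SE 0.27, adjusted p = 0.0292, and 0.00609 without mouse 7). It read 8.30, 7.89 and 8.17 in controls and 6.58, 7.08 and 6.70 in mice 23, 24 and 25, without overlap. In eosinophilic mice it read 6.78, 7.34 and 6.83 and in mixed mice 7.58, 7.16 and 7.43, also below every control (eosinophilic difference -1.13, adjusted p = 0.0701). Cdkn1b, the CDK inhibitor p27, read 8.38, 8.31 and 8.17 in controls and at most 7.65 in any allergen mouse, and its differences were -1.33 (adjusted p = 0.0648) in eosinophilic and -1.26 (adjusted p = 0.0538) in neutrophilic lungs. Cdkn2c, another CDK inhibitor, lay below every control in mixed mice, at 5.13, 5.26 and 6.09 against 7.13, 7.01 and 6.75 (-1.47, adjusted p = 0.130, and 0.0215 without mouse 7). Smc4, a condensin subunit, fell by 1.53 in neutrophilic lungs (adjusted p = 0.05, just under the threshold before rounding), at 5.20, 5.44 and 4.81 against 6.64, 6.63 and 6.79, and was the 1 further mitotic gene called there. Ccnd1, cyclin D1, differed by -1.54 (adjusted p = 0.184) in eosinophilic and -1.38 (adjusted p = 0.431) in neutrophilic lungs. It read 9.61, 9.98 and 9.23 in controls and 5.81, 9.43 and 8.95 in mice 7, 8 and 9. Mouse 8 thus lay within the controls, and the compressed array of mouse 7 was by far the lowest. In mice 23, 24 and 25 Ccnd1 read 7.53, 8.41 and 8.72. Cdkn1a, the gene of p21, was not measured by a probe set of its own.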

How the data were processed

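RNA from whole lungs (300 ng for each array, per the labels) was labelled with the WT Plus kit and hybridised to Affymetrix mouse Gene 1.0 ST arrays. The deposited values are log2 intensities, 1 for each probe set, made by the authors in Expression Console (Affymetrix) by RMA, which adjusts for background, applies quantile normalization and combines the probes of a set. These names come from the submitters' processing notes, and their versions were not among the sources used here. The log2 base was inferred from the size of the values. Of 34760 probe sets, the platform annotation lists 22961 with a gene, 21640 of them with 1 symbol and 1321 with several. Among probe sets with 1 symbol, the one with the highest mean over 12 arrays stood for each of 19937 genes. Of the measured members 45 had 1 such probe set and 3 (Pcna, Tk1 and Top2a) had 2.

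A mean for each group was fitted to all 12 arrays with limma 3.58.1 in R 4.3.3 (lmFit, contrasts.fit, eBayes without trend). P values are two-sided and adjusted by the Benjamini-Hochberg method over all 19937 genes within a comparison, with the threshold at an adjusted p of 0.05. The F test used the same fit. No filter on low values was applied in this fit, and no detection calls or batch labels were used. P values measure the spread within groups, in which differences between mice and between arrays, compressed ones included, are joined. All groups share this spread. Leaving out eosinophilic mouse 7 moved the genes called for neutrophilic against control from 421 to 1889. The 3 arrays in each group limit the precision. The fit was tested on simulated data in which each gene had the same spread on every array. No compressed array was simulated, so that test says nothing of calls that such arrays move. Comparisons against control share the 3 control mice.

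The members, the pathway and marker lists and the alternatives were chosen with earlier results of these data known. Values in every array are given for Mki67, Top2a, Cdk1, Plk1, Aurkb, Birc5, Cdc20, Foxm1, Mcm5, Mcm6, Rrm2, Tyms, Tk1, Pcna and Cdc6 in at least 1 comparison and for the 8 members of smallest p in each comparison with control. Pathway genes were Ccnd1, Ccne1, Myc, E2f1 and Mybl2 and up to 4 of each list by smallest p. The alternatives were a filter that kept genes reaching log2 5 on 3 or more arrays, centring, quantile normalization, a robust eBayes with trend, averaging a gene's probe sets, fits of only the 2 groups compared, array SD as a covariate, leaving out each array in turn, and leaving out the 3 compressed arrays.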

Additional observations from a re-analysis of the deposited data

Results flagged for a closer look

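Anln, the contractile ring gene, differed between 2 allergen models in the limma test of that difference itself. The neutrophilic minus eosinophilic log2 difference was -1.69 (SE 0.28, adjusted p = 0.0466), which is also the gap between the differences of these models from their shared controls, -0.01 in neutrophilic and 1.68 in eosinophilic lungs. All 3 neutrophilic values lay below all 3 eosinophilic ones. Over the alternative settings the adjusted p ranged from 0.00668 to 0.895 and the difference from -2.01 to -1.43.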

How the results depend on the processing

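Counts of members past the threshold changed with the arrays and the scaling, and the sign of the eosinophilic median did not. No paired analysis was possible because the groups share no mouse numbers. With 1 array left out, the count ran from 0 to 19 for eosinophilic against control, 0 to 13 for mixed against eosinophilic, 0 to 6 for neutrophilic against eosinophilic, 0 to 1 for neutrophilic against control and 0 to 8 for the F test, and was 0 throughout for mixed against control and neutrophilic against mixed. The medians then ran from 0.68 to 0.91, -0.91 to -0.64, -0.75 to -0.38, 0.12 to 0.26, 0.00 to 0.19 (mixed against control) and 0.03 to 0.23 (neutrophilic against mixed). Centring gave 0 members for eosinophilic against control, neutrophilic against eosinophilic and the F test, and medians of 0.65 (eosinophilic), 0.11 (neutrophilic), -0.56 (mixed against eosinophilic) and -0.47 (neutrophilic against eosinophilic), while it moved the median of all genes to -0.24 for eosinophilic against control. Quantile normalization gave medians of 0.59, 0.06 and -0.53 for the first 3 of these and 0 members for neutrophilic against eosinophilic. The filter on dim genes gave an eosinophilic median of 0.73, over the 32 members it kept. Trend and robust settings gave 8 members for eosinophilic against control, 1 for mixed against eosinophilic and 4 for the F test. Fits of 2 groups gave 0 for eosinophilic against control and neutrophilic against eosinophilic, 2 for mixed against control and 1 for neutrophilic against control. The array SD as a covariate gave 10 for eosinophilic against control, 2 for neutrophilic against control, 6 for neutrophilic against eosinophilic and 11 for the F test. Without mice 7, 9 and 23 the counts were 18, 2 (mixed) and 5 (neutrophilic) against control, 6 and 9 for mixed and neutrophilic against eosinophilic and 20 for the F test, the median of neutrophilic against eosinophilic was -0.85, and Pcna reversed to 1.41 (adjusted p = 0.0276). The cause was not tested. Most members lie in the dim range of the array, where compression raises values, and this limits how far small differences can be read.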
